A study of Rattus norvegicus with 30 samples.

Results

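The genes described here are 9 genes of receptor-mediated protein uptake in the renal proximal tubule, *Lrp2*, *Cubn*, *Amn*, *Dab2*, *Cltc*, *Clcn5*, *Ocrl*, *Fcgrt* and *Lrpap1*. They were chosen by name, and each matched 1 of the 32545 genes in the deposited count table. The study asked how the kidneys of normal male Sprague-Dawley rats respond to a high salt diet. Poly(A) RNA was sequenced from the right kidney cortex (Cx) and outer medulla (OM) of rats fed 0.4% NaCl throughout (LS) and of rats fed 4.0% NaCl for 14 d (HS14) or 21 d (HS21), with 5 libraries per tissue and diet and 30 in all. The labels name no treatment other than the diet. The study describes the rats that gave tissue as a group separate from those used for blood flow measurement. Its methods leave unsaid whether these rats also carried catheters with heparinized saline. Every sample was a piece of whole tissue that held all cell types of its region.

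The proximal tubule takes back nearly all filtered protein by endocytosis at its brush border. Megalin (*Lrp2*) and cubilin (*Cubn*) bind albumin, vitamin-binding proteins and hormones, and cubilin reaches the apical membrane only together with amnionless (*Amn*). The adaptor *Dab2* links the tail of megalin to the clathrin coat, whose heavy chain is *Cltc*. The chloride/proton exchanger ClC-5 (*Clcn5*) and the phosphoinositide phosphatase *Ocrl* act on the early endosome, and loss of either gives the low-molecular-weight proteinuria of Dent disease. The neonatal Fc receptor (*Fcgrt*) carries albumin and IgG away from degradation, and the chaperone RAP (*Lrpap1*) escorts megalin through the endoplasmic reticulum. In the OM the last, straight part of the proximal tubule lies in the outer stripe, so that less proximal tubule is present there than in the Cx.

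In Rnor_6.0, the genome build of the count table, the receptor genes were annotated as *Lrp2* (ENSRNOG00000056184, chromosome 3, 55665145 to 55822551, minus strand), *Cubn* (ENSRNOG00000029047, chromosome 17, 80584878 to 80807243, minus strand) and *Amn* (ENSRNOG00000009050, chromosome 6, 135724455 to 135731896, plus strand). The adaptor and coat genes were *Dab2* (ENSRNOG00000028930, chromosome 2, 55747318 to 55768270, plus strand) and *Cltc* (ENSRNOG00000004291, chromosome 10, 74014562 to 74070266, minus strand). The endosomal genes were *Clcn5* (ENSRNOG00000002862, chromosome X, 16050780 to 16196789, plus strand) and *Ocrl* (ENSRNOG00000003875, chromosome X, 134742356 to 134792618, plus strand), and the remaining genes were *Fcgrt* (ENSRNOG00000020583, chromosome 1, 101086877 to 101095594, minus strand) and *Lrpap1* (ENSRNOG00000009313, chromosome 14, 80911270 to 80924831, plus strand). All 9 are protein coding. The counts on genes summed to 5408126 to 21842843 per library, the lowest in replicate 10 of OM HS14 and otherwise at least 12748841. Levels are given as CPM, the counts relative to the library size after edgeR's TMM scaling (trimmed mean of M values), and changes as the log2 ratio of 2 groups with its SE from edgeR's quasi-likelihood fit. Raised and lowered are used of genes with a Benjamini-Hochberg adjusted P under 0.05 over all genes tested. All 9 genes passed the filter on low counts in every comparison. Kidneys were dissected into both tissues, but neither the labels nor the methods say whether equal replicate numbers in the Cx and OM mark the same rat, and the P values measure the spread between these libraries.

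*Lrp2* and *Cubn* had the most similar expression of any pair of the 9 genes, as given further below, and the promoters of the receptor complex and its adaptor are therefore printed. Each window covers 250 bases before and 50 bases after the RefSeq start of the gene in build GRCr8, read 5′ to 3′ on the strand of the gene. Capitals mark matches on either strand to 7 short motifs, namely GTTAAT (HNF1 core), CAAAGTCCA (HNF4 site), AGGTCA (nuclear receptor core), CACGTG (E-box), CCAAT (NF-Y site), TATAAA (the core promoter element) and GGGCGG (GC box). None of these motifs overlapped another in the 4 windows.
Lrp2 (chr3:74754486-74754785, minus strand): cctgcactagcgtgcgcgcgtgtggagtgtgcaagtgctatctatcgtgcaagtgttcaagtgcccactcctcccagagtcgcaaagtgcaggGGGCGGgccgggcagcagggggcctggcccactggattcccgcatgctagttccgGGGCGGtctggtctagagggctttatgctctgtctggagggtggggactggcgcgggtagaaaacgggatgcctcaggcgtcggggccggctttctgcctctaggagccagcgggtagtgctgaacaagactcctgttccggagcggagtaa
Cubn (chr17:81501645-81501944, minus strand): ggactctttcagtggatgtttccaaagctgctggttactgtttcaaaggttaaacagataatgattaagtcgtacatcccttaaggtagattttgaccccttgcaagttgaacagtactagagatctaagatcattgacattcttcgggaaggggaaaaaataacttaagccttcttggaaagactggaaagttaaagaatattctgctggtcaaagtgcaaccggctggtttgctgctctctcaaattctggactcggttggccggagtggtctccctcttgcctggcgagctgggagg
Amn (chr6:136132317-136132616, plus strand): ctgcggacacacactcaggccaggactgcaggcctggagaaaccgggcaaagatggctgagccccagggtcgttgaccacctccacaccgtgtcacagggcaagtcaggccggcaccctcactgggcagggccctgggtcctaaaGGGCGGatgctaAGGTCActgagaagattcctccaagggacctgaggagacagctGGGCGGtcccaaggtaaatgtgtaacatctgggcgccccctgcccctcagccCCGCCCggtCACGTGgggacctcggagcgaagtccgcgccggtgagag
Dab2 (chr2:57272050-57272349, plus strand): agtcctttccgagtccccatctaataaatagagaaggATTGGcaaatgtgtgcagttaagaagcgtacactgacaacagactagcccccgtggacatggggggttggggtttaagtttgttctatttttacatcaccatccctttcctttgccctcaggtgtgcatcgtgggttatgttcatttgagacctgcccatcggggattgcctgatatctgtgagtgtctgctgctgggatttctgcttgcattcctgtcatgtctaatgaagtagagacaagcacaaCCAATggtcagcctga
The *Lrp2* window held 2 GC boxes, was 63.3% G or C and had 20 CG dinucleotides. The *Cubn* window held none of the 7 motifs, was 44.7% G or C and had 6 CG dinucleotides. The *Amn* window held 3 GC boxes, 1 nuclear receptor core and 1 E-box, and that of *Dab2* held 2 NF-Y sites. Of all 33469 rat promoter windows given by RefSeq, 33.1% held a GC box, 37.5% an NF-Y site, 16.2% a nuclear receptor core and 6.42% an E-box, and the median window was 51.7% G or C with 7 CG dinucleotides. HNF1 cores (7.45% of all windows), HNF4 sites (0.391%) and the core promoter element (14.2%) were not found in these 4 windows, which says only that these letters are absent there. Windows were found for 8 of the 9 genes. Of the genes not printed, *Cltc*, *Clcn5* and *Lrpap1* had GC boxes, and *Fcgrt* had an HNF1 core. As the *Cubn* window held none of the 7 motifs, it could share none with that of *Lrp2*. Only exact letters were searched, so other elements that the 2 windows may have in common would not be seen.

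The 9 genes spanned a wide range of abundance on the LS diet. Per kilobase of gene length in the Cx, *Dab2* stood highest at 435 ± 28.6 CPM per kb (SD, n = 5), followed by *Lrp2* at 359 ± 18.6, *Lrpap1* at 256 ± 10.6 and *Amn* at 175 ± 10.96. *Cltc* at 139 ± 4.85, *Fcgrt* at 89.6 ± 1.42, *Cubn* at 83.03 ± 4.66, *Clcn5* at 25.8 ± 2.35 and *Ocrl* at 3.80 ± 0.438 CPM per kb followed. Neighbours in this order did not overlap between libraries, with the exception of *Fcgrt* and *Cubn*, whose ranges did. Megalin and its chaperone RAP were thus both among the 3 genes with the highest level per length. In OM LS *Lrpap1* (171 ± 84.2 CPM per kb) and *Lrp2* (167 ± 109.9) led, and *Dab2* (67.9 ± 31.1) stood behind *Cltc* and *Amn*. There the ranges of all neighbours in the order overlapped.

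OM LS was compared with Cx LS, which differ in both the amount and the segment of proximal tubule they hold. This comparison therefore cannot show whether a gene follows the proximal tubule. Of the 26 proximal tubule markers 16 were lowered and 4 raised in OM LS, with a median log2 ratio of -2.07. Among the raised was *Slc7a13*, which marks the straight part, at 5.89 (adjusted *P* = 0.000134, SE 0.72). *Dab2*, the endocytic adaptor, showed the largest difference of the 9 genes. It was at 1215, 1195, 1063, 1159 and 1054 CPM in the 5 Cx LS libraries and at 144, 308, 172, 176 and 86.8 CPM in the 5 OM LS libraries. Every OM library thus lay below every Cx library, and the log2 ratio of OM to Cx was -2.68 (adjusted *P* = 6.18e-05, SE 0.29). *Clcn5* was at 76.8, 75.7, 80.9, 64.5 and 81.97 CPM in Cx LS and at 23.7, 29.1, 26.9, 20.6 and 3.86 CPM in OM LS, again without overlap and with a log2 ratio of -1.87 (adjusted *P* = 0.0038, SE 0.40). In total 5 of the 9 genes were lower in OM LS, against 19.5% of the 14295 genes tested, and 0 were higher, against 21.3%. The other 3 lowered genes were *Cubn* at -1.30 (adjusted *P* = 0.0404, SE 0.45), *Cltc* at -0.50 (adjusted *P* = 0.0277, SE 0.16) and *Fcgrt* at -0.47 (adjusted *P* = 0.001, SE 0.080). *Lrp2* (-1.10, adjusted *P* = 0.106, SE 0.50), *Amn* (-1.17, adjusted *P* = 0.0571, SE 0.44) and *Lrpap1* (-0.58, adjusted *P* = 0.142, SE 0.30) did not pass, with 95% intervals of -2.22 to 0.014, -2.15 to -0.19 and -1.24 to 0.074. *Ocrl* was at 16.98 ± 1.96 CPM in Cx LS and 15.9 ± 2.79 CPM in OM LS (SD, n = 5), a log2 ratio of -0.11 with an interval of -0.41 to 0.20. In all, 6 genes were at a lower CPM in every OM library than in any Cx library, against 15.7% of all genes. With libraries scaled by total counts, which moved the median of all genes from 0.029 to 0.27 and the share of raised among called genes from 52.2% to 75.0%, 4 genes were called lower, against 12.9% of all genes. On that scale *Cltc* was no longer called (adjusted *P* = 0.0579 by edgeR), and *Ocrl* turned to 0.15 while the other 8 kept their sign. With the replicate number as a block *Amn* was called lower as well, at -1.49 (adjusted *P* = 0.0454), and *Cltc* was no longer called, at -0.53 (adjusted *P* = 0.0501). The call of *Cubn* was lost without any 1 of the Cx LS libraries or of OM LS replicates 1, 3 and 4 (adjusted *P* = 0.0588 to 0.0902 by edgeR), and that of *Cltc* without OM LS replicate 1 (0.067) or 4 (0.0586).

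The OM libraries differed widely among themselves in proximal tubule content, as far as markers show. The summed level of 26 proximal tubule markers was 5090 to 39820 CPM in OM LS, with replicate 2 highest and replicate 5 lowest, 9183 to 21490 CPM in OM HS14 and 7397 to 22210 CPM in OM HS21. Thick ascending limb markers summed to 10540 to 22170 CPM in OM LS against 1652 to 2217 CPM in Cx LS. Replicate 2 of OM LS also stood apart in markers of cortical structures, with distal convoluted tubule markers at 378 CPM against 21.6 to 36.6 CPM in the other 4 and podocyte markers at 313 CPM against 134 to 185 CPM, and it had the lowest thick ascending limb sum. *Lrp2* was at 2044, 5071, 2953, 2532 and 344 CPM in OM LS, again highest in replicate 2 and lowest in replicate 5. Without replicate 2, 8 of the 9 genes were called lower in OM LS than in Cx LS, against 26.0% of all genes, with *Lrp2* at -1.51 (adjusted *P* = 0.0223). Without replicate 5 *Lrp2* was at -0.82 (adjusted *P* = 0.0217) and *Amn* at -0.91 (adjusted *P* = 0.0283), both called. Without replicates 2 and 5, an alternative added after seeing the data, 8 were called as well, against 26.6% of all genes, with *Lrp2* at -1.16 (adjusted *P* = 2.10e-05) and *Amn* at -1.36 (adjusted *P* = 1.48e-05). Only *Ocrl* was not called there. In these pieces of tissue, fewer proximal tubule cells and less RNA of a gene per cell cannot be told apart.

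**Figure D1:**
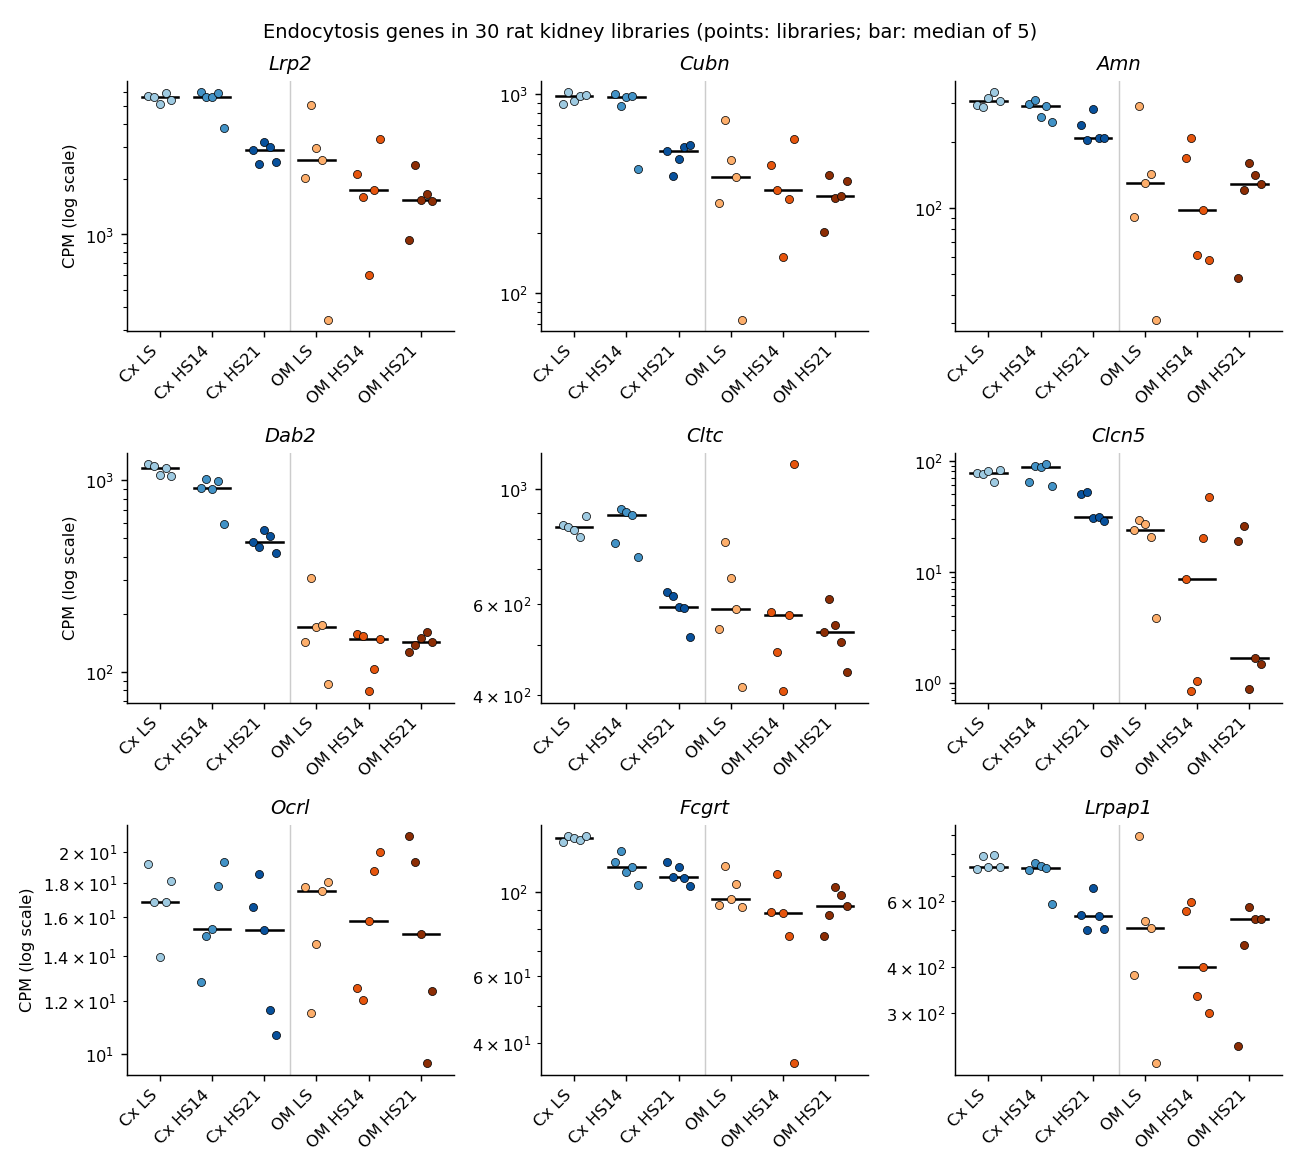
Level of each of the 9 endocytosis genes in CPM on a log axis for the 30 libraries in 6 groups, where points are libraries in order of replicate number and bars are the median of 5. In the Cx at HS21 all libraries lie below LS for every gene but *Ocrl*, and the OM libraries spread more widely than those of the Cx.

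In the Cx at HS21, most of the protein uptake genes were lowered. Compared with LS, 8 of the 9 genes were lowered, against 20.5% of the 14299 genes tested, and 0 were raised, against 18.9%. The same 8 genes lay below every LS library in every HS21 library, which held for 14.6% of all genes. The median log2 ratio of the 9 genes was -0.52, and that of all genes 0.0046. With libraries scaled by total counts, which moved the median of all genes to 0.13 and the share of raised among called genes from 47.9% to 72.6%, the 9 genes had a median of -0.39 and again 8 were lowered, against 11.6% of all genes.

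The receptors fell to unequal extents. Megalin (*Lrp2*) was at 5664, 5611, 5165, 5941 and 5424 CPM in the 5 Cx LS libraries and at 2905, 2437, 3180, 2984 and 2478 CPM in the 5 Cx HS21 libraries. The highest HS21 value lay under the lowest LS value, and the log2 ratio was -0.99 (adjusted *P* = 1.56e-05, SE 0.083), a level 0.502 times that of LS. Cubilin (*Cubn*) was at 885, 1017, 919, 979.9 and 986 CPM on LS and 516, 386, 472, 539 and 552 CPM at HS21, with a log2 ratio of -0.96 (adjusted *P* = 2.95e-05, SE 0.090). Both large receptors were therefore at close to the same share of their LS level, with intervals of -1.18 to -0.81 for *Lrp2* and -1.16 to -0.76 for *Cubn*. *Amn*, the partner that brings cubilin to the membrane, was at 293, 288, 317, 335 and 306 CPM on LS and 238, 203, 282, 208 and 208 CPM at HS21. Its groups were close to each other, replicate 13 of HS21 lying just under the lowest LS library, and its log2 ratio was -0.44 (adjusted *P* = 0.00255, SE 0.089) with an interval of -0.63 to -0.24 that lay apart from those of both receptors. The difference between the genes was not itself tested.

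The adaptor *Dab2* fell most of all 9 genes in the Cx. From 1137 ± 74.7 CPM on LS it went to 481 ± 53.1 CPM at HS21 (SD, n = 5), with HS21 libraries at 475, 449, 553, 511 and 416 CPM. The log2 ratio was -1.24 (adjusted *P* = 3.28e-06, SE 0.080), a level 0.422 times that of LS. The clathrin heavy chain gene *Cltc*, which serves coated vesicles in all cells, was at 852, 844, 833, 808 and 888 CPM on LS and 633, 621, 592, 589.6 and 518 CPM at HS21. It fell less, by 0.52 on the log2 scale (SE 0.059, adjusted *P* = 8.56e-05), again without overlap.

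Of the endosomal genes *Clcn5* fell and *Ocrl* did not pass the test. *Clcn5* was at 50.01, 52.6, 30.5, 31.1 and 28.5 CPM in Cx HS21, where replicates 11 and 12 stood above the other 3 libraries and all 5 below LS. Its log2 ratio was -0.98 (adjusted *P* = 0.00108, SE 0.17). *Ocrl*, the least abundant of the 9, was at 19.2, 16.9, 13.9, 16.8 and 18.1 CPM on LS and 16.6, 18.5, 15.3, 11.6 and 10.7 CPM at HS21. The groups overlapped, and its log2 ratio of -0.23 (adjusted *P* = 0.262, SE 0.15) had an interval of -0.56 to 0.11, which includes both no change and a fall as large as that of *Cltc*.

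The salvage receptor and the chaperone were lowered as well. *Fcgrt* was at 136, 141, 139, 138 and 141 CPM on LS, the narrowest spread of any of the 9 genes, and at 120.4, 110.1, 117, 109 and 104 CPM at HS21. Its log2 ratio was -0.31 (adjusted *P* = 0.000483, SE 0.048). *Lrpap1* was at 730.4 to 794 CPM (median 738) on LS and at 500.3 to 649 CPM (median 546) at HS21, with a log2 ratio of -0.47 (adjusted *P* = 0.000488, SE 0.072). Neither gene overlapped between the groups.

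**Figure D2:**
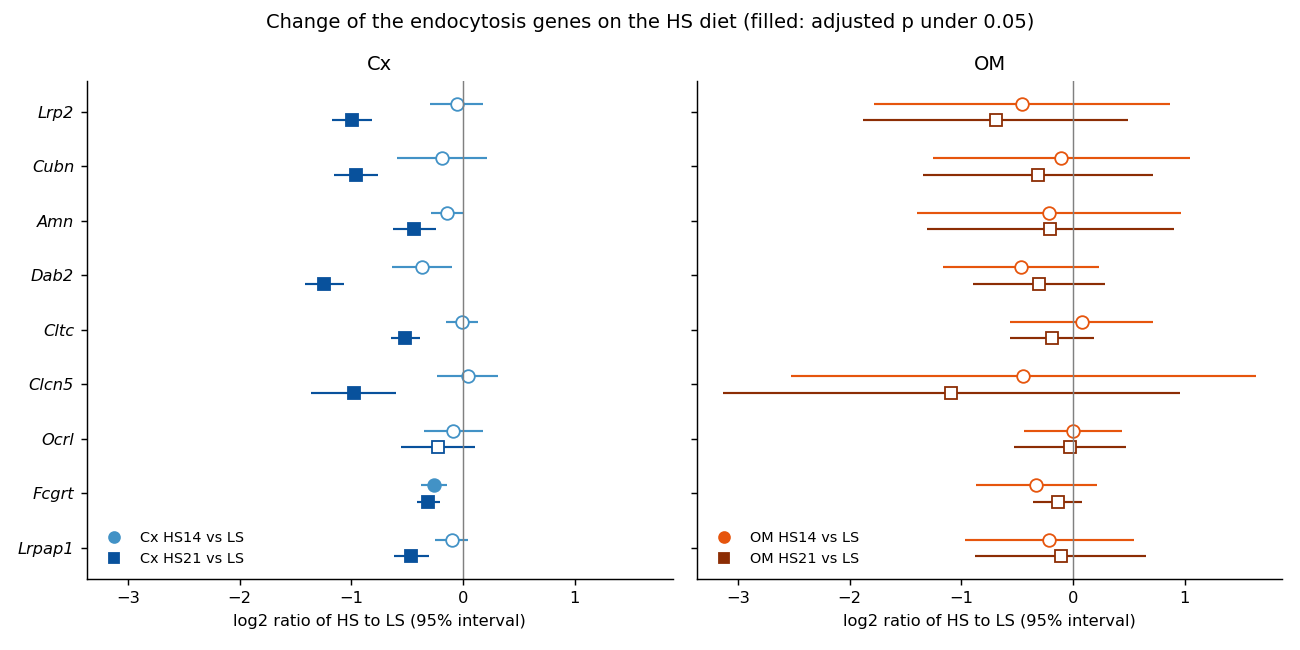
Log2 ratio of HS to LS for each gene with its 95% interval from edgeR, in the Cx on the left and the OM on the right, for HS14 (circles) and HS21 (squares), filled where the adjusted P was under 0.05. In the Cx at HS21 8 of 9 symbols are filled, at HS14 only that of *Fcgrt*, and in the OM all are open with wide intervals.

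Markers of other parts of the tissue moved in the same Cx libraries. Of the 26 proximal tubule markers 22 were lowered at HS21 and 0 raised, with a median log2 ratio of -0.67. Their summed level was 42610 to 48220 CPM in Cx LS and 25040 to 31940 CPM in Cx HS21. The lowest ratio on the list was that of *Gatm*, which makes the creatine precursor guanidinoacetate, at -1.49 (adjusted *P* = 0.00379, SE 0.32), and the highest that of the amino acid transporter *Slc7a13*, which marks the straight part, at 0.98 (adjusted *P* = 0.144, SE 0.50). Of 12 macrophage markers tested 12 were raised, and the 13 on the list summed to 1093 to 1259 CPM on LS and 1505 to 6087 CPM at HS21. All 9 leukocyte and T cell markers tested were raised as well, and the 10 on that list summed to 93.98 to 126 CPM on LS and 202 to 665 CPM at HS21. Of 7 thick ascending limb markers 3 were raised and 1 lowered, of 2 distal convoluted tubule markers tested 2 were raised, and of 6 collecting duct and 6 podocyte markers 5 each. The summed levels of the thick ascending limb markers (1652 to 2217 CPM on LS, 2421 to 3253 CPM at HS21), the 3 distal convoluted tubule markers listed (1027 to 1250 and 1489 to 2805 CPM) and the collecting duct markers (669.8 to 744 and 975 to 1624 CPM) were higher too, as were those of the podocyte markers (669.9 to 759.5 and 833 to 1007 CPM). The 6 endothelial markers summed to 598 to 656 CPM on LS and 633 to 804 CPM at HS21, with 3 of 6 raised. *Pvalb* was at 0 in all 30 libraries, and *Cd163* stayed under 1 CPM in each. The part of these shifts in the fall of the 9 genes was not tested.

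When libraries were instead scaled on the summed proximal tubule markers, the calls of the 9 genes differed in direction. Differences between the genes were not tested. Against these markers *Dab2* was still lower at HS21, at -0.48 (adjusted *P* = 0.000359, SE 0.094), and so was *Lrp2*, at -0.22 (adjusted *P* = 0.0324, SE 0.091). These were 2 of 9 genes, against 0.867% of all genes lowered on that scale. *Cubn* (-0.18, adjusted *P* = 0.127, SE 0.11) and *Clcn5* (-0.19, adjusted *P* = 0.384, SE 0.20) were no longer called. The remaining 5 genes were higher relative to the markers, as were 87.4% of all genes, namely *Amn* at 0.33 (adjusted *P* = 0.000891, SE 0.073), *Cltc* at 0.26 (adjusted *P* = 0.0223, SE 0.096), *Lrpap1* at 0.30 (adjusted *P* = 0.00143, SE 0.071), *Fcgrt* at 0.46 (adjusted *P* = 0.000139, SE 0.081) and *Ocrl* at 0.55 (adjusted *P* = 0.00913, SE 0.17). This scaling moved the median of all genes to 0.78, and all 9 genes lay under that median. A further scale, chosen after seeing the data, used the mean log2 level of the 26 markers. On that scale the median of all genes was 0.57, *Dab2* (-0.69, adjusted *P* = 3.33e-05, SE 0.086), *Lrp2* (-0.43, adjusted *P* = 0.000227, SE 0.075) and *Cubn* (-0.40, adjusted *P* = 0.00305, SE 0.10) were lowered, and only *Fcgrt* was raised, at 0.26 (adjusted *P* = 0.011, SE 0.081). Of all genes tested, 1.97% were lowered and 76.5% raised on that scale.

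**Figure D3:**
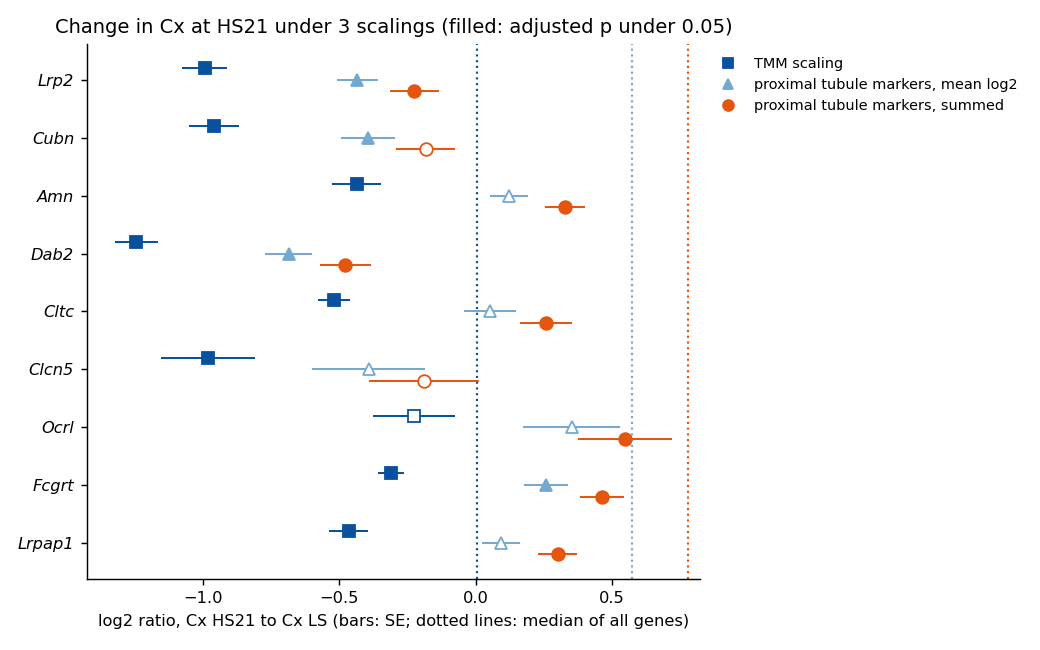
Log2 ratio of Cx HS21 to Cx LS for each gene with its SE under TMM scaling (squares), scaling on the mean log2 level of 26 proximal tubule markers (triangles) and scaling on their summed level (circles), filled where the adjusted P was under 0.05. Dotted lines mark the median of all genes under each scaling, and *Dab2* and *Lrp2* are lowered under all 3.

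After 14 d few of the genes were called in the Cx. At HS14 1 of the 9 genes was lowered, against 1.18% of the 14181 genes tested, and 0 were raised, against 1.14%. That gene was *Fcgrt*, at 120.1, 129, 113, 117 and 104 CPM and thus below all LS libraries, with a log2 ratio of -0.26 (adjusted *P* = 0.0361, SE 0.055). This call was lost without the filter on low counts (adjusted *P* = 0.0511) and in 8 of the 10 fits that each left out 1 library, which were all but those without HS14 replicates 7 and 10 (adjusted *P* = 0.0549 to 0.0869 by edgeR). *Dab2* was at 915, 1021, 906, 994 and 588 CPM, also below every LS library, but its log2 ratio of -0.37 (adjusted *P* = 0.137, SE 0.12) did not pass. With *Fcgrt* it made 2 of 9 genes without overlap, against 2.36% of all genes. The other 7 log2 ratios ran from -0.19 (*Cubn*) to 0.040 (*Clcn5*), with intervals of -0.59 to 0.22 and -0.24 to 0.32.

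Replicate 10 of Cx HS14 stood apart in these genes. Its *Lrp2* level was the lowest of the values 5954, 5652, 5594, 5910 and 3796 CPM, and its *Cubn* level that of 998, 872, 968, 978 and 418 CPM, which is within the HS21 range. The proximal tubule markers summed to 32150 CPM in this library and to 39560 to 43680 CPM in the other 4. Its thick ascending limb (3072 CPM), distal convoluted tubule (2240 CPM) and collecting duct sums (1299 CPM) were above the other 4, which reached 1953, 1332 and 1036 CPM. Its macrophage sum, 1258 CPM, was below theirs of 1616 to 1900 CPM. Without replicate 10, *Dab2* was lowered as well, at -0.26 (adjusted *P* = 0.0456), *Fcgrt* at -0.23 (adjusted *P* = 0.0274), and *Lrp2* stood at 0.043 and *Cubn* at -0.018, neither called. In the other 4 libraries *Lrp2* and *Cubn* thus lay close to the LS libraries, and *Dab2* and *Fcgrt* below them.

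The genes also differed between the HS14 and HS21 groups of the Cx. The comparison of HS21 with HS14 shares the HS21 libraries with that of HS21 with LS, and both HS groups were compared with the same LS libraries. At HS21 6 of the 9 genes were lowered, against 9.69% of the 14395 genes tested, and 0 were raised, against 6.5%. These were *Lrp2* at -0.94 (adjusted *P* = 0.00391, SE 0.13), *Cubn* at -0.77 (adjusted *P* = 0.0276, SE 0.20), *Dab2* at -0.87 (adjusted *P* = 0.00559, SE 0.14), *Cltc* at -0.51 (adjusted *P* = 0.00518, SE 0.078), *Clcn5* at -1.02 (adjusted *P* = 0.0113, SE 0.20) and *Lrpap1* at -0.36 (adjusted *P* = 0.0222, SE 0.089). *Fcgrt* was at -0.051 (adjusted *P* = 0.612, SE 0.064), with an interval of -0.19 to 0.090. *Amn* (-0.30, adjusted *P* = 0.0633, SE 0.10) and *Ocrl* (-0.14, adjusted *P* = 0.589, SE 0.16) did not pass either. Without replicate 10 of HS14 *Amn* was lowered too, at -0.35 (adjusted *P* = 0.0319), which made 7 of 9, against 14.1% of all genes, and so it was without HS21 replicate 13 (adjusted *P* = 0.0107). The call of *Cubn* was lost without HS14 replicate 6, 7, 8 or 9 or HS21 replicate 12 or 14 (adjusted *P* = 0.051 to 0.0696), and that of *Lrpap1* without HS14 replicate 7, 8 or 9 or HS21 replicate 15 (0.0535 to 0.061). Scaling by total counts moved the median of all genes from 0.014 to 0.13 and the share of raised among called genes from 40.1% to 76.3%. On that scale *Lrpap1* was no longer called, at -0.25 (adjusted *P* = 0.0606), and *Fcgrt* turned to 0.065. By limma on log2(FPKM + 1) *Cubn* was not called either (adjusted *P* = 0.0533). The proximal tubule markers summed to 32150 to 43680 CPM in Cx HS14 and 25040 to 31940 CPM in Cx HS21. Scaled on that sum, *Lrp2* and *Dab2* were still lowered, *Cubn* (-0.19, adjusted *P* = 0.32) and *Clcn5* (-0.43, adjusted *P* = 0.0753) were no longer called, *Cltc* stood at 0.050, and *Amn*, *Fcgrt* and *Lrpap1* were raised. Of all genes tested, 0.486% were lowered and 73.7% raised on that scale.

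In the OM none of the 9 genes was called on the HS diet. At HS21 0 were raised and 0 lowered by edgeR, against 0.639% and 0.131% of the 14555 genes tested, and 0 had an unadjusted P under 0.05 in either direction. DESeq2's Wald test and limma on log2(FPKM + 1) also called 0 of the 9. At HS14 0 of the 9 were called or had an unadjusted P under 0.05 by edgeR, and 0 were called by DESeq2 and limma, against 0.00694% of the 14417 genes tested raised and 0.0% lowered by edgeR. The spread was much wider than in the Cx. *Lrp2* was at 2134, 1601, 599.9, 1742 and 3332 CPM in OM HS14 and 933, 2381, 1549, 1661 and 1515 CPM in OM HS21, and both groups lay within the LS range. Its log2 ratio at HS21 was -0.69 with an interval of -1.88 to 0.50, which includes a fall of the size seen in the Cx. *Cubn* was at 203, 391, 301, 306 and 367 CPM in OM HS21, a log2 ratio of -0.31 (-1.35 to 0.72).

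Some genes were measured more closely in the OM. *Dab2* was at 127, 138, 150.3, 161 and 143 CPM in OM HS21, its narrowest OM group. Its log2 ratio of -0.30 had an interval of -0.90 to 0.29, which leaves out the Cx value of -1.24. *Fcgrt* was at 76.7, 86.95, 103, 98.1 and 92.3 CPM in OM HS21, with a log2 ratio of -0.14 (-0.35 to 0.080). *Cltc* at -0.19 (-0.56 to 0.19) and *Ocrl* at -0.028 (-0.53 to 0.47) also had intervals that include 0. In OM HS14 *Cltc* reached 1117 CPM and *Fcgrt* was at 35.4 CPM in replicate 10, the library with the fewest counts, whereas the other 4 libraries spanned 406 to 577 CPM and 76.9 to 112 CPM.

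The changes at HS21 in the OM and the Cx were set against each other with an interaction term, positive where the change was more upward in the OM. None of the 9 genes passed by edgeR, against 0.448% of the 15194 genes tested with a positive and 0.217% with a negative difference, and 1 had an unadjusted P under 0.05. That gene was *Dab2*, with a difference of 0.94 (adjusted *P* = 0.138, SE 0.29), an interval of 0.32 to 1.55 and an unadjusted P of 0.00478. By DESeq2 it passed, at 0.95 (adjusted *P* = 0.0485), and so it did by edgeR without replicate 2 of OM LS, at 1.25 (adjusted *P* = 0.00284), or without replicates 2 and 5 of OM LS, at 1.05 (adjusted *P* = 0.00105). With the replicate number as a block it did not pass, at 1.06 (adjusted *P* = 0.0899). The other 8 differences ran from -0.13 (*Clcn5*) to 0.64 (*Cubn*), and that of *Lrp2* was 0.30 with an interval of -0.87 to 1.48. The *Lrp2* interval includes no difference between the tissues as well as one larger than the Cx fall itself. Scaling by total counts moved the median difference of all genes from -0.055 to -0.16 and the positive share of called genes from 67.3% to 51.4%, with 0 of the 9 called.

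*Clcn5* spread more widely in the OM than the other 8 genes. It was at 8.67, 0.836, 1.03, 19.97 and 46.98 CPM in OM HS14 and at 18.8, 25.7, 0.882, 1.68 and 1.49 CPM in OM HS21. In each diet group some libraries lay at 18.8 CPM or more and others at 8.67 CPM or less, with replicate 5 alone in the low range of LS. *Lrp2* shared this order only in part. It was at 344 to 2134 CPM in the 7 OM libraries with *Clcn5* at 8.67 CPM or less and at 933 to 5071 CPM in the other 8. *Cubn* was at 73.65 to 437.7 CPM and 203 to 740 CPM in the same libraries, and both genes overlapped. The 933 CPM of *Lrp2* was its lowest level of OM HS21, in replicate 11, where *Clcn5* was at 18.8 CPM. *Cltc* was at 406 to 577 CPM in the 7 OM libraries with *Clcn5* at 8.67 CPM or less. In the other 8 it was at 529 to 1117 CPM, with some overlap. The log2 ratio of *Clcn5* to LS was -0.44 (adjusted *P* = 0.994, SE 0.94) at HS14 and -1.09 (adjusted *P* = 0.771, SE 0.92) at HS21, with intervals of -2.53 to 1.64 and -3.13 to 0.96.

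The protein-coding genes nearest to *Clcn5* over the 15 OM libraries, looked up after its values were seen, were *Mib1*, *Bbx*, *Zyg11b*, *Dennd1b* and *Itgb8*. The ubiquitin ligase gene *Mib1* was at 55.0, 59.8, 63.0, 54.8 and 10.8 CPM in OM LS, at 17.8, 3.22, 4.07, 53.6 and 149 CPM in OM HS14 and at 50.5, 61.9, 4.09, 6.53 and 5.27 CPM in OM HS21. Its 7 lowest libraries were the 7 in which *Clcn5* was lowest. The same 7 were the lowest for *Bbx* (0.63 to 35.7 CPM over the OM), for *Zyg11b* (2.45 to 71.3 CPM), for *Dennd1b*, an activator of the endosomal GTPase Rab35 (1.22 to 34.5 CPM), and for the integrin subunit gene *Itgb8* (6.07 to 186.5 CPM). In Cx HS21 *Mib1* was at 53.3, 52.4, 26.3, 41.4 and 24.9 CPM, and replicates 13, 14 and 15, the lower ones in the OM, were the lower ones here too for both *Mib1* and *Clcn5*. What these libraries share was not tested.

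**Figure D4:**
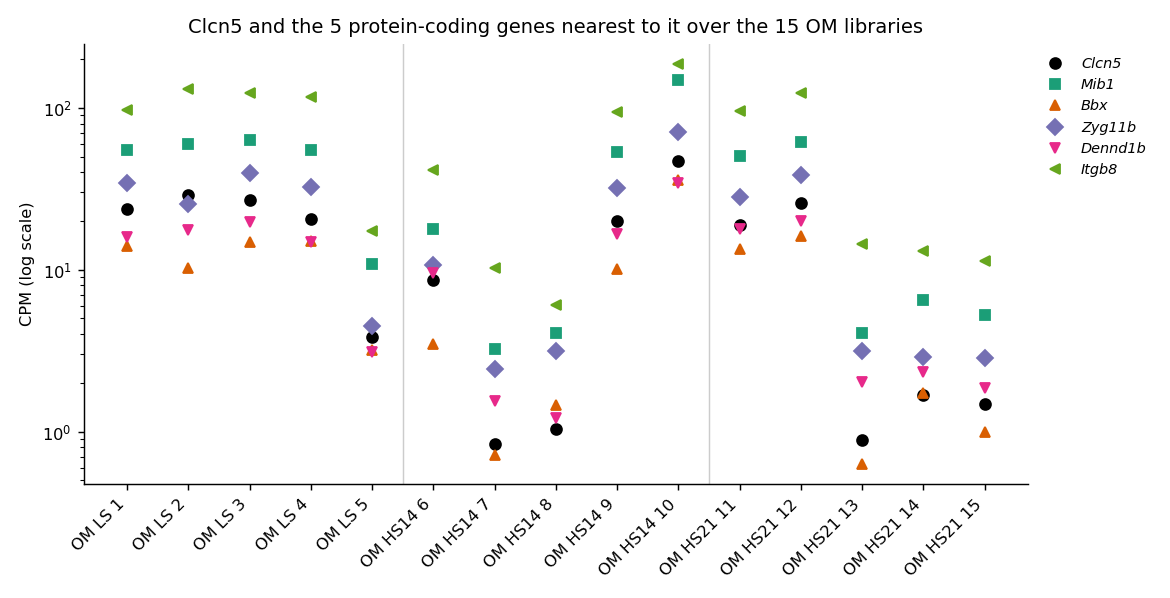
Level of *Clcn5* and of the 5 protein-coding genes nearest to it, in CPM on a log axis, in each of the 15 OM libraries. All 6 genes are low in replicate 5 of LS, replicates 6, 7 and 8 of HS14 and replicates 13, 14 and 15 of HS21.

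The genes that carry cargo onward were described from 5 lists. In the Cx at HS21, 16 of 26 coat and adaptor genes tested were lowered and 3 raised, with a median log2 ratio of -0.24. For this and the other 4 lists the shares of all genes tested were 20.5% lowered and 18.9% raised. The largest changes among genes of at least 10 CPM were in *Picalm*, which recruits clathrin to the membrane, at -0.84 (adjusted *P* = 3.69e-06, SE 0.056), in *Ap2a2*, a subunit of the AP-2 adaptor, at -0.63 (adjusted *P* = 6.30e-06, SE 0.046), and in *Snx9*, which acts in vesicle scission, at -0.62 (adjusted *P* = 4.01e-05, SE 0.063). *Picalm* went from 495 ± 23.8 to 278 ± 17.5 CPM in the Cx and from 246 ± 40.3 to 248 ± 16.5 CPM in the OM (SD, n = 5). Its change differed between the tissues, by 0.85 (adjusted *P* = 0.00501, SE 0.13), and so did that of *Snx9*, by 0.59 (adjusted *P* = 0.0255, SE 0.12). The difference for *Ap2a2* was 0.47 (adjusted *P* = 0.234, SE 0.19).

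Endosome genes were lowered less evenly. Of 34 sorting and recycling genes 20 were lowered and 4 raised (median -0.20). The recycling ATPase *Ehd1* was at -0.66 (adjusted *P* = 6.17e-05, SE 0.072) and the retromer subunit *Vps35* at -0.54 (adjusted *P* = 2.19e-05, SE 0.048), whereas *B2m*, the light chain of both the neonatal Fc receptor and MHC class I, rose, at 0.70 (adjusted *P* = 0.0227, SE 0.22). *B2m* was at 911 to 1010 CPM in Cx LS and 887 to 2547 CPM in Cx HS21, with overlap, and in OM HS21 it was the only gene of the 5 lists called, at 1.004 (adjusted *P* = 0.0344, SE 0.17). Its heavy chain gene *Fcgrt* fell in the Cx, as given above. Of 22 acidification genes 8 were lowered and 1 raised (median -0.11). *Clcn4*, the closest relative of *Clcn5*, fell most, from 118 ± 7.61 to 49.6 ± 4.92 CPM (SD, n = 5), a log2 ratio of -1.25 (adjusted *P* = 3.28e-06, SE 0.075). The proton pump subunit genes *Atp6v1b2* (-0.77, adjusted *P* = 3.28e-06, SE 0.049) and *Atp6v1a* (-0.44, adjusted *P* = 0.000319, SE 0.064) followed, and the change of *Atp6v1b2* differed between the tissues, by 0.76 (adjusted *P* = 0.00501, SE 0.11).

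Of 22 lysosome genes 15 were lowered and 2 raised, with a median of -0.40. The protease gene *Ctsl* went from 2449 ± 218 to 1183 ± 106 CPM (SD, n = 5), at -1.05 (adjusted *P* = 1.17e-05, SE 0.082), and was the only gene of the 5 lists called at HS14, at -0.65 (adjusted *P* = 0.0413, SE 0.14). Among 10 receptors related to megalin 3 were lowered and 4 raised (median 0.18), with the lipoprotein receptor gene *Vldlr* at -0.67 (adjusted *P* = 0.000321, SE 0.097) and *Lrp4* at -0.41 (adjusted *P* = 0.000728, SE 0.067). The other 4 lists had lower medians than all genes (0.0046), and the median of the related receptors was higher. In the OM 0 genes of the 5 lists were called at HS14 and, besides *B2m*, 0 at HS21.

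**Figure D5:**
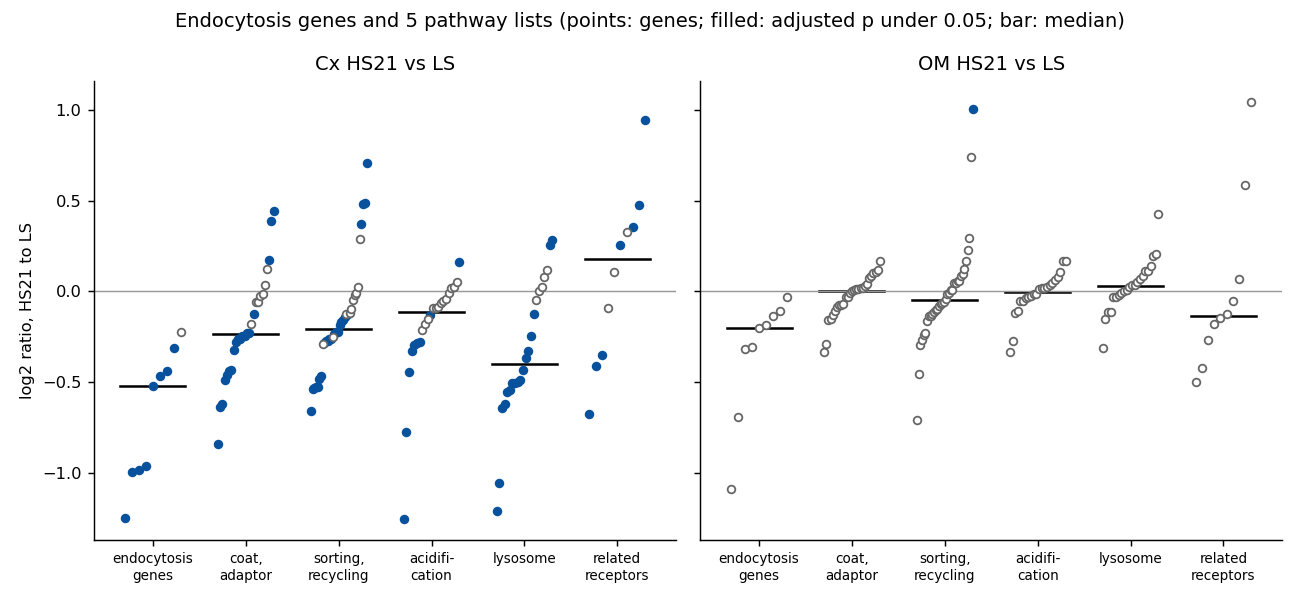
Log2 ratio of HS21 to LS for the 9 endocytosis genes and the genes of 5 pathway lists in the Cx (left) and the OM (right), where points are genes, filled at an adjusted P under 0.05, and bars are medians. In the Cx most filled points lie under 0 in all but the related receptors, and in the OM *B2m* is the only filled point.

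The genes whose levels followed each of the 9 most closely were read from all 30 libraries, as the root mean square difference (RMS) of centred log2 CPM among 14070 genes of at least 1 CPM. *Lrp2* and *Cubn* were nearest to each other (RMS 0.25, against an SD of 1.01 for *Lrp2* and 0.89 for *Cubn*), and both were followed by *Paqr9* and *Map3k13*. *Amn* was nearest to *Dao*, *Cideb* and *Ddah1* (0.17 to 0.20), and *Dab2* to *Acss3*, *Ddx19a* and the carnitine transporter *Slc22a5* (0.23 to 0.25). *Cltc* was nearest to *Myo6* (0.084), the myosin of the coat and adaptor list that moves endocytic vesicles, then to *RGD1307929* and *Letm1*. *Lrpap1* was nearest to *Sephs2*, *Adk* and *Cldn2* (0.11 to 0.14), *Fcgrt* to *Tomm20*, *Asna1* and *Commd3* (0.13), *Ocrl* to *Acer3* and *Zfp322a* (0.16 and 0.18) and *Clcn5* to *Zfp704*, *Arfgef3* and *Sesn3* (0.60 to 0.67). Within the 9 genes the next smallest distance after *Lrp2* and *Cubn* was that of *Fcgrt* and *Lrpap1* (0.34, against SDs of 0.38 and 0.50). *Clcn5*, with an SD of 2.09, lay at least 1.39 from each of the other 8. The SD of *Ocrl* was 0.29. These distances grow with the spread of a gene, so they do not rank how closely genes of unlike spread were followed. All these distances share the same libraries and take in the differences between tissues and diets, and they are given as a description.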

How the data were processed

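Per the submitters' processing notes and the methods of the study, reads were aligned to Rnor_6.0 with HISAT2 2.0.5 and counted per gene with featureCounts 1.5.0-p3, and StringTie 1.3.3b was also used. The authors deposited 1 table with raw read counts per gene, not normalised, and FPKM values (fragments scaled by gene length and mapped reads) for each of the 30 libraries. Its columns for 7 comparisons of the authors (group means, fold changes, P values) were not used. Library kits did not keep strand, so reads from overlapping genes on opposite strands cannot be told apart.

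Counts were filtered with filterByExpr, scaled by TMM and tested 2-sided with edgeR 4.0.16's quasi-likelihood F test in R 4.3.3, for each comparison on the libraries of its groups. P values were Benjamini-Hochberg adjusted over all genes tested. Log2 CPM used a prior count of 2, and per kilobase levels the gene lengths of the table. Alternatives were DESeq2 1.42.0 size factors and Wald test, total counts, no filter, limma 3.58.1 on log2(FPKM + 1), scaling on 26 proximal tubule markers, a replicate block and leaving out each library. Gene counts summed to 5408126 to 21842843 per library, which limits low genes such as *Ocrl* most. No pair of libraries of 1 group agreed within sampling noise (lowest chi-square per gene 6.75 over 60 pairs). The scripts were tested on simulated data. Intervals are at 95%.

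Named were the 9 genes, the 3 genes with the largest change at HS21 in the Cx among called genes of at least 10 CPM on each pathway list, the highest and lowest gene of the proximal tubule list, and the 3 nearest genes to each of the 9. Some genes that these rules name are not reported here. Members and lists were chosen with earlier results of these data known. Of the receptors related to megalin, 10 of 11 listed were matched. Promoters came from RefSeq. Kidneys were dissected into Cx and OM, and whether equal numbers mark 1 rat is not stated, so that the fits had no block and a block was an alternative.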

Additional observations from a re-analysis of the deposited data

Results flagged for a closer look

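Each of the 9 genes was checked in each of the 6 groups for a library far from the other 4, by Dixon's criterion for 5 values (a gap over 0.71 of the range), which chance meets in about 1 in 20 groups. Of these 54 groups 5 met it, 4 of them in the same library. Replicate 10 of Cx HS14 had *Lrp2* at 3796 CPM, *Cubn* at 417.6 CPM, *Dab2* at 588.3 CPM and *Lrpap1* at 588.8 CPM, each below the other 4 libraries. Replicate 10 of OM HS14, the library with the fewest counts, had *Cltc* at 1117 CPM, above the other 4. Without meeting the criterion, it was also highest of its group in *Lrp2*, *Cubn*, *Clcn5* and *Ocrl* and lowest in *Amn*, *Fcgrt* and *Lrpap1*. With it left out, the log2 ratios of OM HS14 to LS were -0.77 for *Lrp2* and -1.455 for *Clcn5*, neither called. What sets these libraries apart was not tested.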

How the results depend on the processing

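Outside the marker scalings, 45 of 45 values of the Cx comparison of HS21 with LS kept their direction and their side of the threshold, 42 of 45 at HS14, 41 of 45 for HS21 against HS14, 50 of 54 and 53 of 54 in the OM at HS14 and HS21, 54 of 63 between the tissues and 61 of 63 for the interaction. Scaling on the summed proximal tubule markers turned, at HS14 in the Cx, the log2 ratios to *Lrp2* 0.15, *Cubn* 0.0033, *Amn* 0.078, *Cltc* 0.21, *Ocrl* 0.15 and *Lrpap1* 0.11, with 0 genes lowered. On the mean log2 level they turned to *Lrp2* 0.075, *Amn* 0.0050, *Cltc* 0.14, *Ocrl* 0.080 and *Lrpap1* 0.035, with 0 lowered. Without the filter 0 were lowered too. Of all genes tested, 0.374% were lowered on the summed markers, 0.31% on the mean log2 level and 0.593% without the filter. At HS21 in the Cx the summed markers turned *Amn* 0.33, *Cltc* 0.26, *Ocrl* 0.55, *Fcgrt* 0.46 and *Lrpap1* 0.30, with 5 raised and 2 lowered, and the mean log2 level *Amn* 0.12, *Cltc* 0.052, *Ocrl* 0.35, *Fcgrt* 0.26 and *Lrpap1* 0.093, with 1 raised and 3 lowered. Against HS14 they turned *Amn* 0.25, *Cltc* 0.050, *Ocrl* 0.40, *Fcgrt* 0.51 and *Lrpap1* 0.19, with 3 raised and 2 lowered, and *Amn* 0.12, *Ocrl* 0.27, *Fcgrt* 0.37 and *Lrpap1* 0.058, with 1 raised and 3 lowered. By construction these ratios are relative to the markers, and under these scalings 94.5% and 85.2% of called genes were raised at HS14, 99.0% and 97.5% at HS21 and 99.3% and 98.4% against HS14. Of all genes tested, 87.4% and 76.5% were raised and 0.867% and 1.97% lowered at HS21. Against HS14 these shares were 73.7% and 54.1% raised and 0.486% and 0.868% lowered. In OM HS14 the summed markers turned *Lrp2* 0.19, *Cubn* 0.48, *Amn* 0.11, *Clcn5* 0.27 and *Lrpap1* 0.015, none called.

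Total counts turned *Cltc* 0.0059 in Cx HS14, *Fcgrt* 0.065 in Cx HS21 against HS14 and *Ocrl* 0.15 between the tissues, no filter *Cltc* 0.0017 in Cx HS14, RLE *Ocrl* 0.011 and limma *Cubn* 0.083 in OM HS14, and limma *Amn* 0.023 in OM HS21. Without OM LS replicates 2 and 5 and OM HS14 replicate 10, chosen after seeing the data, *Amn* 0.12 and *Cltc* -0.26 turned in OM HS14, 8 genes were lower between the tissues (26.6% of all genes), and 1 passed the interaction with a positive difference (2.8% of all genes), as by DESeq2 (1, against 1.05%). The cause was not tested.

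Leaving out 1 library gave 0 to 2 genes lowered in Cx HS14, 8 to 8 at HS21, 4 to 7 for HS21 against HS14, 3 to 8 between the tissues and 0 to 1 in the interaction, and 0 in the OM. The shares of all genes lowered in these fits were 0.3% to 1.62% in Cx HS14, 17.6% to 20.8% at HS21, 4.75% to 14.1% for HS21 against HS14 and 16.6% to 26.0% between the tissues. Values that changed sign ranged, in Cx HS14, over *Lrp2* -0.094 to 0.043, *Cltc* -0.036 to 0.035 and *Clcn5* -0.027 to 0.12, in OM HS14 over *Cubn* -0.37 to 0.26, *Amn* -0.49 to 0.25, *Cltc* -0.24 to 0.20, *Ocrl* -0.10 to 0.089 and *Lrpap1* -0.40 to 0.088, in OM HS21 over *Cubn* -0.58 to 0.044, *Amn* -0.46 to 0.26, *Ocrl* -0.17 to 0.10 and *Lrpap1* -0.30 to 0.19 and in the interaction over *Amn* -0.016 to 0.73 and *Clcn5* -0.87 to 0.17. With the replicate number as a block, 5 genes were lower between the tissues, with *Amn* called (-1.49, adjusted *P* = 0.0454) and *Cltc* not (-0.53, 0.0501), and 0 passed the interaction. Deviations from the group means correlated over 0.1 between the tissues in 10 of 15 numbers (-0.071 to 0.44), among them all 5 of HS21, and in 13 of 15 the own number correlated best, a hint that numbers mark rats. The spread among the OM libraries limits what could be detected there.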
